A study of Mus musculus with 30 samples.

Results

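The 10 genes of the node of Ranvier and its neighbouring membrane domains described here, in brain RNA of Tmem106b -/-, +/- and +/+ mice, were Cntn1, Cntn2, Cntnap1, Nfasc, Ank3, Kcna1, Kcna2, Scn8a, Sptbn4 and Epb41l3. They were chosen by gene name and are 10 of 34871 genes in the deposited table. For 9 of them the symbol in the table was the same, and Epb41l3 was found by its gene ID under an older spelling of its symbol. Listed here as axonal are 7 members whose proteins sit in the axon membrane or its cytoskeleton (Cntn1, Cntnap1, Epb41l3, Kcna1, Kcna2, Scn8a and Sptbn4). The cells that make their transcripts were not measured. The other 3 (Nfasc, Cntn2 and Ank3) are made by neurons and by the oligodendrocytes that wrap the axon. Their gene-level values add both sources. All 10 passed the filter on low values.

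The samples were 10 Tmem106b -/- (KO), 10 Tmem106b +/- (HET) and 10 Tmem106b +/+ (WT) mice, all 8 months old, with 5 females and 5 males in each genotype. A cohort label divides each genotype into 4 mice of cohort 2 and 6 of cohort 1. Total RNA came from whole cerebral hemispheres, so fewer cells of a type and less RNA per cell cannot be told apart. The sources used here do not give the strain, the part of Tmem106b that was deleted or the meaning of the cohort label.

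Myelinated axons conduct by jumping from node to node. At the node, voltage-gated sodium channels are held by ankyrin G and βIV spectrin. On both sides, the paranodal junction binds the glial loops to the axon through contactin, Caspr and the glial form of neurofascin. Beyond it, under compact myelin, lies the juxtaparanode, where Kv1 potassium channels collect together with contactin 2. Tmem106b encodes a transmembrane protein of late endosomes and lysosomes.

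Values are log2 RPKM (reads scaled to gene length and to library size) after conditional quantile normalization, as the authors deposited them, and a difference between groups is a log2 change. The read depth of the libraries is unknown, because normalized values carry no counts, and errors are therefore the spread between mice. Library medians lay between 2.82 and 2.91 and library maxima at 14.17, while library lower quartiles spread from -1.20 to -0.07. Tmem106b itself averaged 7.53 ± 0.08 in KO brains, 8.58 ± 0.03 in HET brains and 9.17 ± 0.07 in WT brains (SD, n = 10 each), and the 3 genotypes did not overlap. Its change in KO against WT was -1.64, so its RNA signal was lower but not absent in KO brains. Defining markers of neurons and of oligodendrocytes were well above 0. The mean of 12 neuron markers was 10.57 ± 0.03 in KO, 10.61 ± 0.03 in HET and 10.58 ± 0.03 in WT brains (SD, n = 10 each). The mean of 12 oligodendrocyte and myelin markers was 9.06 ± 0.08 in KO, 9.24 ± 0.05 in HET and 9.33 ± 0.06 in WT brains, with the KO brains between 8.93 and 9.20 and the WT brains between 9.22 and 9.43.

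All 10 genes were in the upper part of the expression range. Averaged over the 30 brains, Cntnap1 was highest at 9.47, which placed it at percentile 96.1 of the 23695 genes tested. Kcna2 was lowest at 7.49, at percentile 79.7. The order between them was Cntn1 (9.16), Epb41l3 (9.04), Scn8a (8.77), Kcna1 (8.69), Sptbn4 (8.30), Ank3 (8.25), Cntn2 (8.23) and Nfasc (8.12). Most steps in this order held in at least 28 of the 30 brains. The exceptions were Sptbn4 above Ank3, seen in 20 brains, and Ank3 above Cntn2, seen in 18, so neither of these pairs of neighbours differed beyond its spread. The values are scaled to gene length, but they depend on the gene models behind them, and these were shorter for some members than in the GENCODE M21 annotation of the same build. In M21, Ank3 starts 134999 bases earlier, Epb41l3 81127 bases earlier, and Kcna2 ends 8126 bases further on. In the table's coordinates (mm10), the plus-strand members are Kcna2 at chr3:107101567-107106879, Ank3 at chr10:69533772-70027438, Cntnap1 at chr11:101170523-101190724, Cntn1 at chr15:92051165-92341967, Scn8a at chr15:100870683-101045929 and Epb41l3 at chr17:69156810-69289985 (ENSMUSG00000024044). On the minus strand, Kcna1 at chr6:126636463-126645801 and Sptbn4 at chr7:27356383-27447686 join Cntn2 and Nfasc.

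Nfasc and Cntn2 are neighbours on mouse chromosome 1, and their promoter windows are shown because the levels of this pair moved together between mice, as described further on. In the table's coordinates (mm10), Cntn2 spans chr1:132509427-132543256 and Nfasc chr1:132564690-132741797, both on the minus strand, with 21433 bases between them. Promoter windows of 250 bases before to 50 after the start were taken from a table of RefSeq starts (GRCm38.p6), in which 7 of the 10 members were matched; windows of Kcna1, Ank3 and Cntnap1 were not used here. The windows are Cntn2 at chr1:132542891-132543190, Nfasc start A at chr1:132642809-132643108 and Nfasc start B at chr1:132707277-132707576. The Nfasc starts lie 99918 and 164386 bases from that of Cntn2. Both lie inside the Nfasc span given above, and the 5' end of that span, at 132741797, has no window here. Capitals mark CAGCTG, an E-box sequence. In Nfasc start A it spans the annotated start and directly follows a stretch rich in T and C. Whether transcription begins at start A, and the use of CAGCTG as a binding site, were not tested.
Cntn2: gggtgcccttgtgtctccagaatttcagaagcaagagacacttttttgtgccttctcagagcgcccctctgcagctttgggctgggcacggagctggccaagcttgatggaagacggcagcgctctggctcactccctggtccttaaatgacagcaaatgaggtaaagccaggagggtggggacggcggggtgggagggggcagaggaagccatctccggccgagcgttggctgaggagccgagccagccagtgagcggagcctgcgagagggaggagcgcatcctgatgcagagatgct
Nfasc start A: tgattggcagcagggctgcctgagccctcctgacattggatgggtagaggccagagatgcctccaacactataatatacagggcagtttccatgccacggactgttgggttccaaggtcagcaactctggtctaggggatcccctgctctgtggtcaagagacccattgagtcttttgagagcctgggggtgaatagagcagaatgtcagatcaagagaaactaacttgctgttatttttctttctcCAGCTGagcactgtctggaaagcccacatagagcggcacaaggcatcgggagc
Nfasc start B: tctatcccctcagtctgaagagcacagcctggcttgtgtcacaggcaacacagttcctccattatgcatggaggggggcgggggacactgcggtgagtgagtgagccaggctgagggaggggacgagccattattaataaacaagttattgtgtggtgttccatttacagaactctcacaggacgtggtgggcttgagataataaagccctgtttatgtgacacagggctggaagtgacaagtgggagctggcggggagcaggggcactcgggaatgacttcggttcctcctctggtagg
The windows were searched on both strands for ACAAAG, a core recognised by SOX factors, and for CAGCTG, which do not overlap one another here. The windows of Cntn2 and of Nfasc start B held neither, and start A held a single CAGCTG. Over all members CAGCTG was in 3 of 16 windows and ACAAAG in 1 of 16, against 16.3% and 18.71% of 32851 RefSeq windows of the same length. The GC content was 61.3% for Cntn2, 52.0% for Nfasc start A and 54.3% for start B.

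In KO against WT brains, none of the 10 genes passed the test. By size, 9 of 10 estimates were below 0, from -0.09 for Kcna2 to -0.01 for Scn8a, and Cntn1 was at 0.01. Over all genes tested, 11070 of 23695 estimates were below 0. The estimates of the members come from the same brains and are not independent of one another. By limma with genotype, sex, cohort and RNA integrity number (RIN) in the fit, 0 of 10 were called at an adjusted p under 0.05, where 1.00% of all 23695 genes were called. At an unadjusted p under 0.05 there were 2 of 10 (Cntn2 and Cntnap1), against 12% of all genes (2846 of 23695). The median change was -0.03 over the 10 genes, -0.03 over the 7 axonal members and -0.06 over the 3 axonal and glial members, beside 0.01 over all genes tested. Cntn1 is also made by cells of the oligodendrocyte lineage, and with Cntn1 moved to the axonal and glial members their median was -0.05. Without KO replicate 10 the median of the 3 axonal and glial members was -0.04, and without WT replicate 1 that of the axonal members was -0.01. The same fit called 11 of the 12 oligodendrocyte and myelin markers lower, with a median change of -0.28, and 0 of the 12 neuron markers, 2 of which had an unadjusted p under 0.05.

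**Figure D1:**
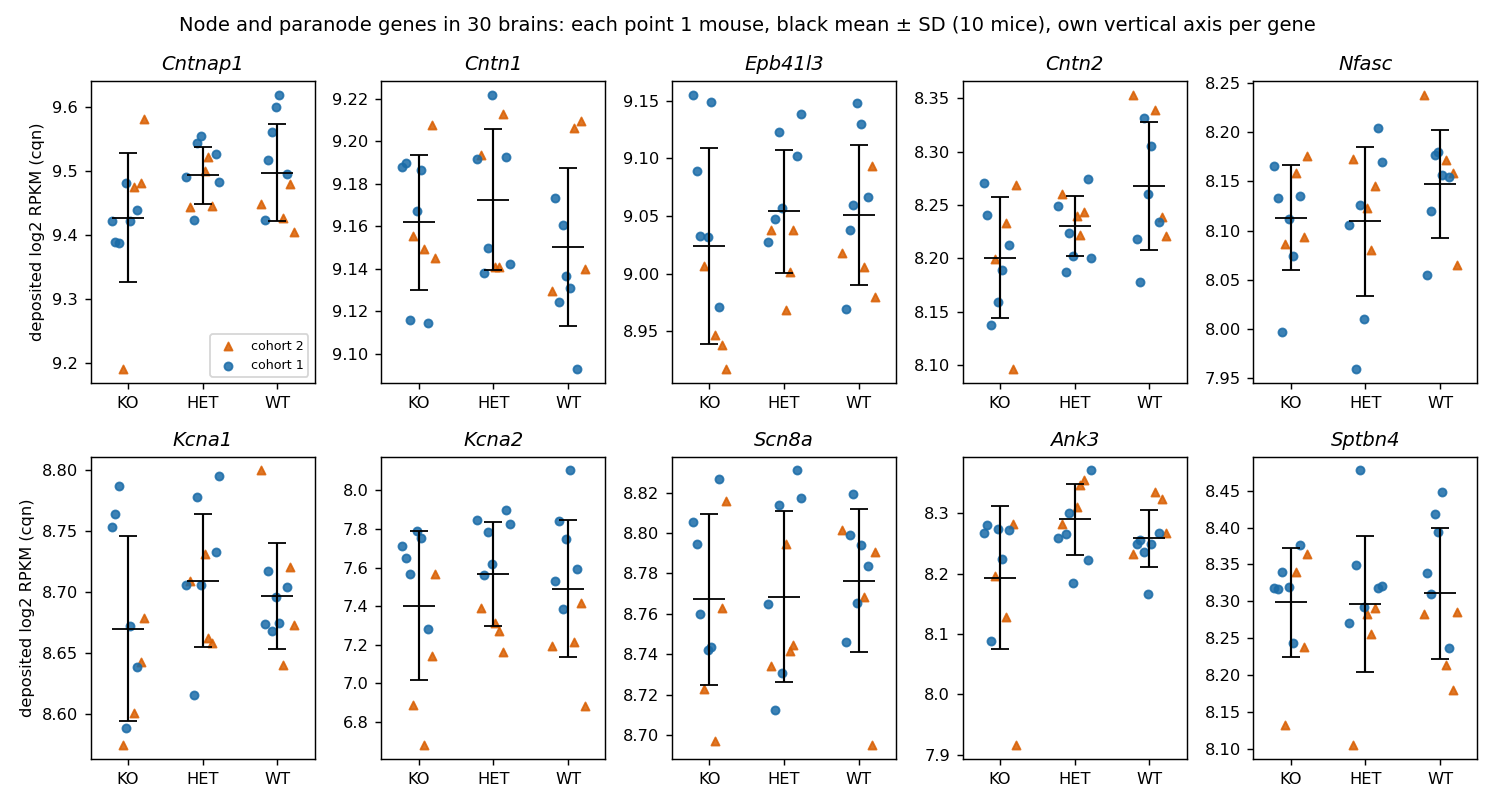
Deposited log2 RPKM of each gene (vertical axes, own range per gene) in KO, HET and WT brains; each point is 1 mouse, triangles cohort 2 and circles cohort 1, with the mean and SD in black. The genotypes overlap for every gene, Kcna2 spans from 6.68 to 8.10, and single low KO brains stand out for Cntnap1 (9.19) and Ank3 (7.92).

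**Figure D2:**
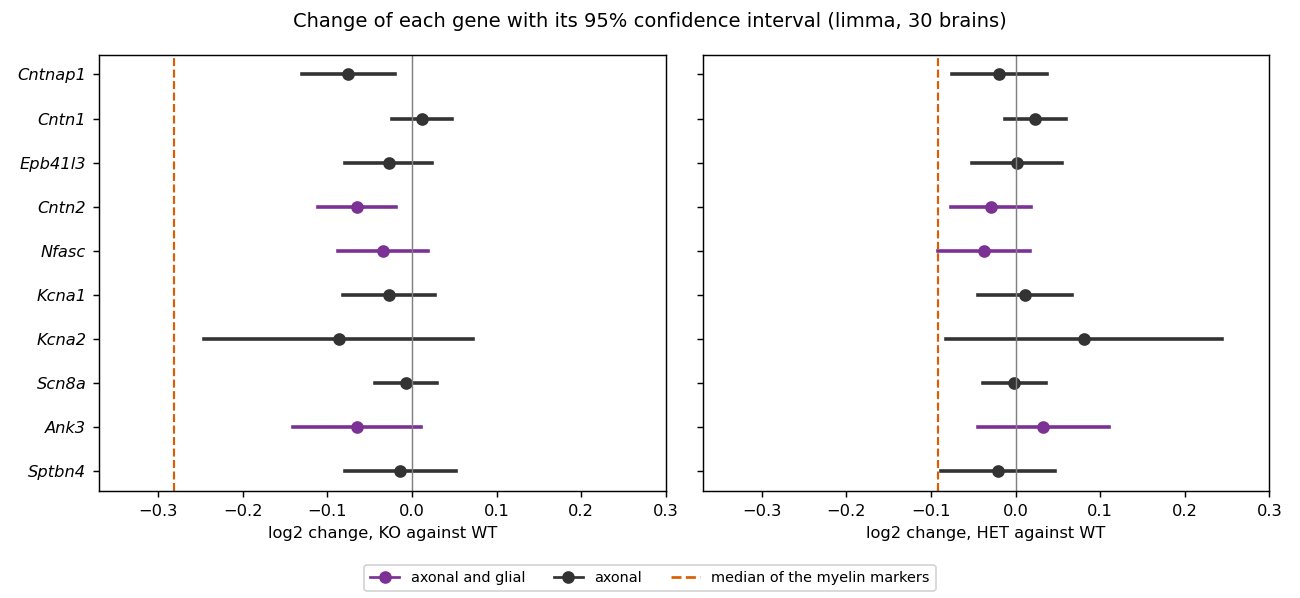
Log2 change of each gene in KO against WT (left) and HET against WT (right) with its 95% confidence interval from limma; purple marks the axonal and glial members and the dashed line the median of the 12 myelin markers (-0.28 in KO, -0.09 in HET). In KO against WT the intervals of Cntnap1 and Cntn2 lie below 0, and all 10 lie above the dashed line.

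Cntnap1 encodes Caspr, the axonal protein that forms the paranodal septate-like junction. It had 9.19 in the lowest, 9.43 in the median and 9.58 in the highest KO brain, 9.42, 9.49 and 9.55 in HET brains, and 9.40, 9.49 and 9.62 in WT brains. Of the KO brains, 9 of 10 were below the WT mean and 3 were below every WT brain, but the ranges overlapped. The change in KO against WT was -0.08 ± 0.03 (SE, 95% interval -0.13 to -0.02), which is -5.07%, with an adjusted p of 0.216 by limma. An exact permutation of genotype within sex and cohort gave an unadjusted two-sided p of 0.0578. The estimate was -0.02 ± 0.06 in cohort 2 and -0.11 ± 0.03 in cohort 1, where it was called (adjusted p = 0.0338). Left out alone, KO replicate 10 also brought the call (-0.10, adjusted p = 0.0191), whereas without KO replicate 4 the change was -0.06. Over all genes, 482 were called in cohort 1 alone and 388 without KO replicate 10, against 237 in the full fit. The difference between the cohorts in the KO effect was itself called for 0 of the 10 genes by limma, where 0.0338% of all genes were, and 1 of 10 (Ank3) had an unadjusted p under 0.05, against 8.53%. Cntnap1 overlaps Plekhh3 and Ccr10 on the opposite strand, which averaged 6.11 and 2.73, and without strand information their shared reads cannot be told apart.

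Cntn1 encodes contactin, the partner of Caspr on the axon. It was among the steadiest of the 10, with 9.11 to 9.21 in KO, 9.14 to 9.22 in HET and 9.09 to 9.21 in WT brains, and it changed by 0.01 ± 0.02 in KO against WT (95% interval -0.02 to 0.05). Epb41l3 encodes protein 4.1B, which ties the Caspr complex to the axonal cytoskeleton. It averaged 9.02 ± 0.09 in KO, 9.05 ± 0.05 in HET and 9.05 ± 0.06 in WT brains (SD, n = 10 each), a change of -0.03 ± 0.03 in KO against WT with an adjusted p of 0.729 by limma. Of the 10 KO brains, 3 were below and 2 above every WT brain, so the KO values for Epb41l3 were spread to both sides.

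Nfasc encodes neurofascin, whose long neuronal form sits at the node and whose shorter glial form faces Caspr and contactin across the paranode. It had 8.00, 8.12 and 8.18 in the lowest, median and highest KO brain, 7.96, 8.12 and 8.20 in HET brains and 8.05, 8.16 and 8.24 in WT brains. The groups overlapped almost fully, with 1 KO brain below every WT brain. The change was -0.03 ± 0.03 in KO against WT and -0.04 ± 0.03 in HET against WT, with adjusted p-values of 0.657 and 0.867 by limma. Neither the neuronal nor the glial form of neurofascin can be read from a gene-level value.

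At the node, Scn8a encodes Nav1.6, the main sodium channel of mature nodes. It averaged 8.77 ± 0.04 in KO, 8.77 ± 0.04 in HET and 8.78 ± 0.04 in WT brains (SD, n = 10 each), and its 95% interval in KO against WT, -0.04 to 0.03, was among the narrowest of the members. Sptbn4, which encodes βIV spectrin, averaged 8.30 ± 0.07 in KO, 8.30 ± 0.09 in HET and 8.31 ± 0.09 in WT brains, a change of -0.01 ± 0.03. Its locus overlaps that of Gm20479 on the same strand, which averaged 8.56, and shared reads cannot be told apart.

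Ank3 encodes ankyrin G, which clusters sodium channels at nodes and axon initial segments and is also used by glia at the paranode. It had 7.92, 8.25 and 8.28 in the lowest, median and highest KO brain, 8.18, 8.29 and 8.37 in HET brains, and 8.17, 8.25 and 8.33 in WT brains. The medians of KO and WT brains were alike, and 3 KO brains lay below every WT brain. The change was -0.06 ± 0.04 in KO against WT (adjusted p = 0.518 by limma) and -0.10 ± 0.04 in KO against HET (adjusted p = 0.411), where 10 of 10 KO brains were below the HET mean. The KO against WT change was -0.16 ± 0.06 in cohort 2 and -0.00 ± 0.03 in cohort 1. Without KO replicate 10, the lowest library, it was -0.03.

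At the juxtaparanode, Cntn2 encodes contactin 2 (TAG-1), present on both the axon and the glial membrane, where it holds Kv1 channels in place. It had 8.10, 8.21 and 8.27 in the lowest, median and highest KO brain, 8.19, 8.23 and 8.27 in HET brains and 8.18, 8.25 and 8.35 in WT brains. The KO brains lay below the WT mean in 8 of 10 and the HET brains in 9 of 10, with overlap of all 3 groups. The change in KO against WT was -0.06 ± 0.02 (95% interval -0.11 to -0.02), or -4.39%, with an adjusted p of 0.198 by limma and an unadjusted two-sided p of 0.0328 by exact permutation within sex and cohort. It was -0.08 ± 0.04 in cohort 2 and -0.05 ± 0.03 in cohort 1. Whichever library was left out, it stayed between -0.08 and -0.05 and was not called. The oligodendrocyte marker mean was lower in the same KO brains; its part in the Cntn2 values was not tested.

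The Kv1 channel subunits Kcna1 (Kv1.1) and Kcna2 (Kv1.2) set the repolarising current at the juxtaparanode. Kcna1 averaged 8.67 ± 0.08 in KO, 8.71 ± 0.05 in HET and 8.70 ± 0.04 in WT brains (SD, n = 10 each), a change of -0.03 ± 0.03 in KO against WT with an adjusted p of 0.751 by limma. Its locus lies within that of Kcna5 on the same strand, which averaged 4.47. Kcna2 had 6.68, 7.57 and 7.79 in the lowest, median and highest KO brain, 7.16, 7.59 and 7.90 in HET brains and 6.88, 7.47 and 8.10 in WT brains. It varied far more within each genotype than between them, and its change in KO against WT was -0.09 ± 0.08 (95% interval -0.25 to 0.07). It was -0.13 without KO replicate 10 and -0.03 without KO replicate 8, and it was -0.16 in females alone and 0.02 in males alone. Among genes within 0.5 of its level, its residual SD of 0.186 was at percentile 97.9, while those of Cntn1 (0.0354) and Scn8a (0.0367) were at percentiles 7.7 and 8.6.

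In HET against WT brains, 0 of 10 genes were called, where 0.00422% of all genes were (1 gene, Tmem106b itself). At an unadjusted p under 0.05 there were 0 of 10, against 6.32% of all genes. The median change of the 10 genes was 0.00, and the estimates ran from -0.04 for Nfasc to 0.08 for Kcna2. KO against HET brains gave 0 of 10 called, where 0.118% of all genes were. At an unadjusted p under 0.05 there were 3 of 10 in that contrast (Ank3, Kcna2 and Cntnap1), against 8.66% of all genes. Per deleted copy of Tmem106b, 0 of 10 were called, where 1.02% of all genes were, and 2 of 10 had an unadjusted p under 0.05, against 12% (2852 of 23695). These p-values of the slope in the limma fit were 0.00682 for Cntn2, at -0.03 per copy, and 0.00867 for Cntnap1, at -0.04 per copy. KO against WT, KO against HET and the slope share the KO brains.

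The axonal members averaged 8.68 ± 0.08 in KO, 8.72 ± 0.06 in HET and 8.71 ± 0.07 in WT brains, and the axonal and glial members 8.17 ± 0.05 in KO, 8.21 ± 0.04 in HET and 8.22 ± 0.04 in WT brains (SD, n = 10 each). Within each mouse, the axonal and glial mean minus the axonal mean was -0.51 ± 0.09 in KO, -0.51 ± 0.08 in HET and -0.49 ± 0.09 in WT brains. These differences overlapped, with KO brains between -0.64 and -0.36 and WT brains between -0.61 and -0.36. They were not adjusted for sex or cohort, and the axonal mean includes Kcna2, which changed by -0.51 between the cohorts. Their overlap therefore cannot decide whether genotype separates the axonal from the axonal and glial members, which was not tested.

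Other genes of the same domains were read in the same fit, where 1.00% of all genes were called and 12% had an unadjusted p under 0.05. Of 13 further nodal channels and anchors, 0 were called in KO against WT, with a median of 0.00, and 2 had an unadjusted p under 0.05, among them Ank2, the gene of ankyrin B, at -0.09. Of 11 further juxtaparanodal partners 0 were called and 3 had an unadjusted p under 0.05, with a median of -0.03. The 2 lowest p-values among those 11 were that of Epb41l2, which encodes a protein of the 4.1 family, at -0.09 with an adjusted p of 0.160 by limma, and that of Lgi3, a secreted ligand of ADAM proteins, at -0.07 with an adjusted p of 0.387. Of 8 genes of the perinodal matrix 1 was called: Hapln4 (Bral2), a link protein of the matrix around neurons, fell (-0.11 ± 0.03, adjusted p = 0.0470). Hapln2 (Bral1), the link protein of nodes in myelinated tracts, was at -0.16 ± 0.06 with an adjusted p of 0.206.

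More of the 10 genes were called between cohorts than between genotypes. The same held over all genes, of which 1.00% were called in KO against WT. In cohort 2 against cohort 1, 3 of 10 were called, where 17.5% of all genes were, and all 3 fell, where 9.42% of all genes fell. They were the axonal members Kcna2, Epb41l3 and Sptbn4, and 0 of the 3 axonal and glial members were called.

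Kcna2 had the largest of these changes. It had 6.68, 7.21 and 7.57 in the lowest, median and highest brain of cohort 2 (12 mice) and 7.28, 7.73 and 8.10 in cohort 1 (18 mice). All 12 brains of cohort 2 were below the cohort 1 mean, and 8 of them were below every brain of cohort 1. The change was -0.51 ± 0.07 (95% interval -0.65 to -0.38), or -29.9%, with an adjusted p of 1.25e-05 by limma, and its rank by p was 43 among all genes tested. It was -0.55 within KO, -0.47 within HET and -0.52 within WT brains. Within females it was -0.45 (adjusted p = 0.0717) and within males -0.57 (adjusted p = 0.00227). Permuting the cohort labels within sex and genotype in all 1000000 arrangements gave an exact p of 4e-06.

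Epb41l3 averaged 9.00 ± 0.05 in cohort 2 and 9.07 ± 0.06 in cohort 1 (SD, n = 12 and 18), a change of -0.08 ± 0.02 with an adjusted p of 0.0112 by limma. In cohort 2, 11 of 12 brains were below the cohort 1 mean. Sptbn4 averaged 8.25 ± 0.08 in cohort 2 and 8.34 ± 0.06 in cohort 1, a change of -0.10 ± 0.03 with an adjusted p of 0.0146, and 10 of 12 brains were below the cohort 1 mean. Without KO replicate 4 the Sptbn4 change was -0.08 and no longer called (adjusted p = 0.0656). Kcna1, the other Kv1 gene, was at -0.03 ± 0.02 and was not called (adjusted p = 0.374). Of the 12 oligodendrocyte and myelin markers 4 rose in cohort 2, with a median of 0.06 over the 12. Of the 12 neuron markers 1 rose and 4 fell, with a median of -0.05. Of the 6 endothelial markers 3 rose, with a median of 0.11, and of the 8 astrocyte markers 1 fell. The part of these markers in the values of the 3 axonal genes was not tested. The mice of each cohort were balanced over genotype and sex, so the genotype comparisons are not confounded with the cohort label.

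**Figure D3:**
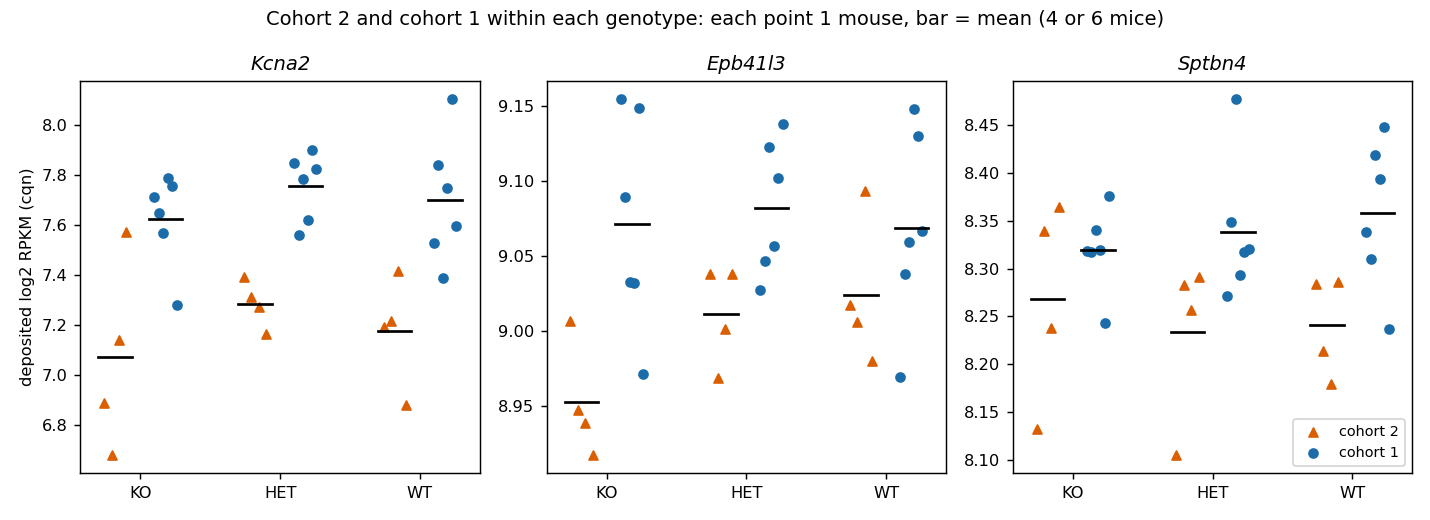
Deposited log2 RPKM of Kcna2, Epb41l3 and Sptbn4 within KO, HET and WT brains, with cohort 2 (triangles, 4 mice per genotype) left of cohort 1 (circles, 6 mice per genotype) and bars at the means. For Kcna2 the cohort 2 mean is lower by about the same amount in every genotype (-0.55 in KO, -0.47 in HET and -0.52 in WT).

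Of all genes, 8.09% rose and 9.42% fell in cohort 2. The list genes named next were chosen after their values were seen, as all those called. Among the nodal channels and anchors 6 of 13 fell in cohort 2 by the same fit. They were Sptan1, the α spectrin partner of Sptbn4, at -0.15, the M-channel subunit Kcnq3 at -0.10, the nodal adhesion molecule Nrcam at -0.09, the sodium channel genes Scn2a at -0.08 and Scn2b at -0.06, and Sptbn1 at -0.07. Among the juxtaparanodal partners 2 of 11 fell, Dlg2 (PSD-93) at -0.13 and Cntnap2 (Caspr2) at -0.11, and 1 rose, Adam23 at 0.08. Of the perinodal matrix genes 2 of 8 fell, tenascin R (Tnr) at -0.19 and Ptprz1 at -0.12.

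In female against male brains, 0 of 10 genes were called, where 0.333% of all genes were, and 3 had an unadjusted p under 0.05, against 12.5%. Kcna2 averaged 7.60 ± 0.30 in females and 7.37 ± 0.34 in males (SD, n = 15 each), a difference of 0.22 ± 0.06 with an adjusted p of 0.123 by limma; without KO replicate 8 it was 0.26 and called (adjusted p = 0.0356). Cntnap1 averaged 9.51 ± 0.06 in females and 9.44 ± 0.09 in males, a difference of 0.07 ± 0.02 with an adjusted p of 0.176. Nfasc averaged 8.15 ± 0.04 in females and 8.10 ± 0.07 in males, a difference of 0.05 ± 0.02 with an adjusted p of 0.325. Library lower quartiles also moved with sex, with a median of -0.29 in females and -0.89 in males; their part in these differences was not tested. The KO effect did not differ by sex at an adjusted p under 0.05 for any of the 10 genes, where 0.00% of all genes did by limma, and 1 of 10 (Epb41l3) had an unadjusted p under 0.05, against 7.10%. The slope over RIN was called for 0 of 10, where 0.0633% of all genes were called, and 1 of 10 (Cntnap1) had an unadjusted p under 0.05, against 10.3%. RIN averaged 9.35 ± 0.49 in KO, 9.23 ± 0.22 in HET and 9.40 ± 0.28 in WT brains (SD, n = 10 each).

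After genotype, sex, cohort and RIN were removed, the mouse-to-mouse values of some members were correlated. Of 45 pairs of members 3 were called, and of 20 relations with the oligodendrocyte or neuron marker mean 1 was called, by permutation of Pearson's r with adjustment over all 65. Nfasc and Cntn2 had the highest value, with r = 0.72 and rho = 0.78 over 30 brains (permutation p = 3e-05 and 1e-05, adjusted 0.00195 and 0.00065; 1e-05 is the smallest that 100000 resamples can give). Without the 2 libraries farthest from the median of the first gene of the pair it was 0.80, and it was 0.91 within cohort 2 and 0.62 within cohort 1. The genes are neighbours with separate annotated starts, and the Nfasc windows printed above lie inside its gene span.

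Epb41l3 was correlated with the oligodendrocyte marker mean, with r = 0.61 and rho = 0.65 (permutation p = 0.00037 and 0.00021, adjusted 0.0120 and 0.00683). This r was 0.82 within cohort 2, 0.63 within cohort 1, and 0.61 without the 2 outermost libraries. The relation is to a gene listed here with the axonal members, and the axonal or glial source of its reads cannot be read from the table. Nfasc and Cntn2 had r = 0.51 and 0.49 with the same marker mean, adjusted p = 0.0538 and 0.0605 by permutation, and neither passed. For Nfasc the relation was 0.05 within cohort 2 and 0.80 within cohort 1, and for Cntn2 it was 0.11 within cohort 2 and 0.82 within cohort 1; this difference between cohorts was not tested. Cntnap1 and Sptbn4 had r = 0.56 (permutation p = 0.00111, adjusted 0.0241), but rho was 0.44 with an adjusted p of 0.118, and r was 0.43 without the 2 outermost libraries, 0.79 within cohort 2 and 0.35 within cohort 1. Scn8a and Nfasc had r = 0.54 and rho = 0.53 (permutation p = 0.00214 and 0.00313, adjusted 0.0348 and 0.0509), with r = 0.45 without the 2 outermost libraries, 0.11 within cohort 2 and 0.81 within cohort 1.

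**Figure D4:**
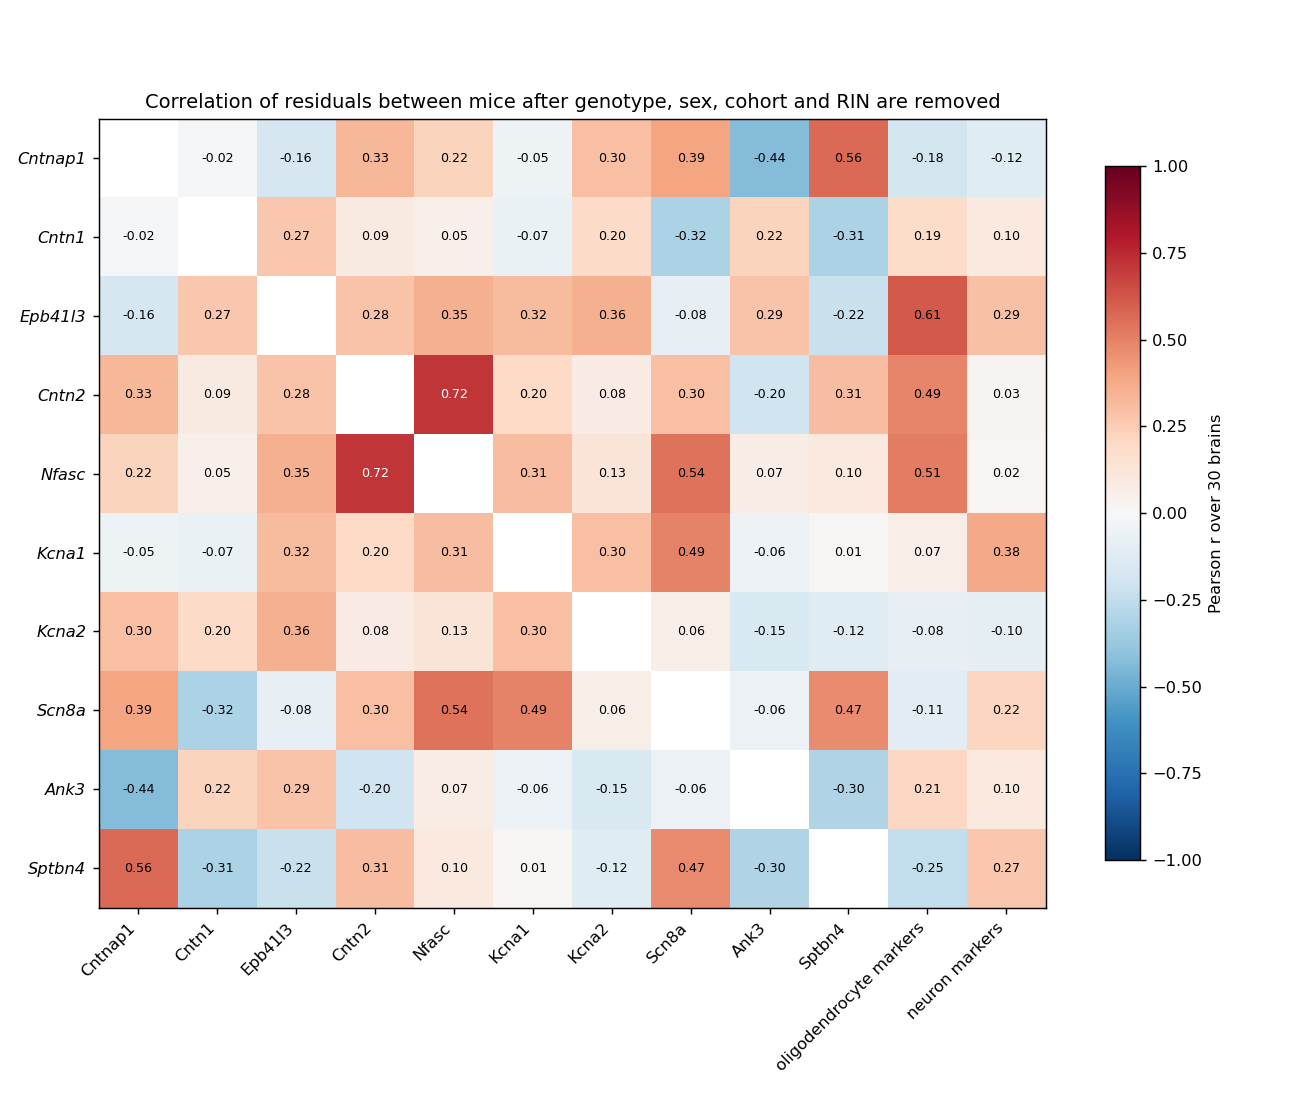
Pearson r over 30 brains between the residual values of the 10 genes and of each gene with the oligodendrocyte and neuron marker means, coloured from -1 (blue) to 1 (red). The highest value is that of Nfasc with Cntn2 (0.72), followed by Epb41l3 with the oligodendrocyte marker mean (0.61).

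**Figure D5:**
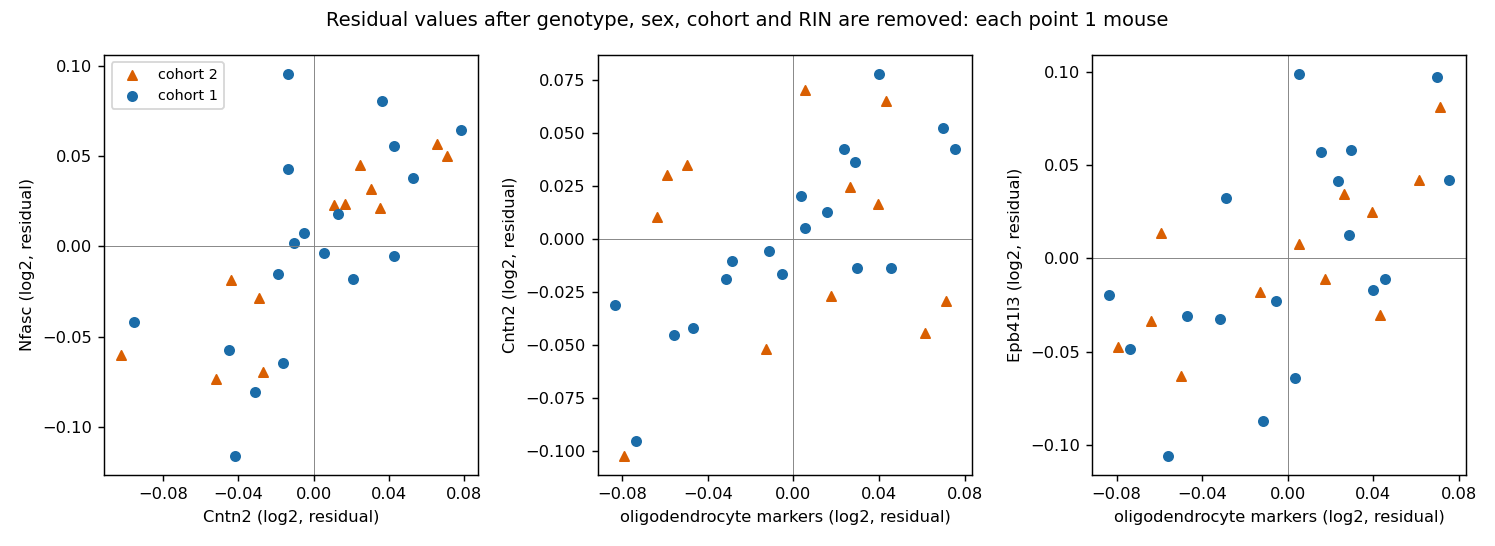
Residual log2 values of Nfasc against Cntn2 (left), and of Cntn2 (middle) and Epb41l3 (right) against the oligodendrocyte marker mean; each point is 1 mouse, triangles cohort 2 and circles cohort 1. Nfasc and Cntn2 line up in both cohorts, whereas r between Cntn2 and the marker mean was 0.11 within cohort 2 and 0.82 within cohort 1, each from a fit within that cohort.

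Among all 23694 other genes tested, those most like each member over the 30 brains after the same terms were removed were found by Pearson's r, as a description with no test. For Cntn2 it was Slc7a10 (0.82), an amino acid transporter gene, for Nfasc Tnrc6a (0.74), for Ank3 Ank2 (0.87), the gene of ankyrin B, and for Cntnap1 Slc12a5 (0.83), the gene of the neuronal chloride exporter KCC2. For Kcna2 it was Lnpep (0.93), the highest value of all members. Scn8a was most like Shank1 (0.75), a postsynaptic scaffold gene, Sptbn4 most like Scand1 (0.86), Epb41l3 most like Dnajb14 (0.80), Kcna1 most like RP23-67I3.5 (0.78) and Cntn1 most like Chrna6 (0.72). Among the members themselves, the partner with the highest r was Scn8a for Kcna1 (0.49), Kcna2 for Epb41l3 (0.36) and Epb41l3 for Kcna2 (0.36), Ank3 (0.29) and Cntn1 (0.27), and for the other members it was the partner already named. These values share their libraries and normalization.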

How the data were processed

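The members and the gene lists were chosen with earlier results of these data known. The submitters' processing notes name mm10, Bowtie 1.1.0 and TopHat2 2.0.12, without their roles. How reads were counted, with which annotation and with which strand setting, is not given in the sources used. The authors deposited one table of log2 RPKM values after conditional quantile normalization, per the file headers, for 34871 genes in 30 libraries. The deposited table also gives the length of each gene, which was used only to describe gene models. Library correlations ran from 0.974 to 0.989 (Pearson r), so no 2 libraries were the same.

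Genes with a mean deposited value above 0 were kept (23695 genes; 11176 were not). Each was fitted with limma 3.58.1 in R 4.3.3 on genotype, sex, cohort and RIN, with an intensity trend, and p-values were Benjamini-Hochberg adjusted over all genes kept, with 0.05 as threshold. Intervals are 95%. The fit was tested on simulated data. Single members were also tested by exact two-sided permutation of labels within strata of the other 2 factors (14400 arrangements for genotype); those for cohort and sex were chosen after seeing the data. Residual correlations used 100000 permutations over 65 relations, which did not allow for the terms removed beforehand. The genes named are the members, list genes called in KO against WT with the 2 lowest p-values of each list, the gene of all tested and the member most like each member and, chosen after seeing the data, list genes called between cohorts. A gene that this rule names is not reported here. Alternatives were covariates, groups in the fit, filters, scaling, pseudocount, spread model, library weights, cohort, sex, class of Cntn1 and each library left out. Replicate numbers were given in sample order. Each library is a separate mouse.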

Additional observations from a re-analysis of the deposited data

Results flagged for a closer look

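In 3 of 30 combinations of gene and genotype that were examined, an extreme brain stood apart from the other 9 by more than Dixon's 95% critical value of 0.466 for 10 samples; chance gives about 1 in 20. Cntnap1 was 9.19 in KO replicate 4, with the next KO brain at 9.39. Kcna1 was 8.80 in WT replicate 1, with the next WT brain at 8.72. Ank3 was 7.92 in KO replicate 10, with the next KO brain at 8.09.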

How the results depend on the processing

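Counts of members called that moved are given first. In KO against WT and in the slope over deleted copies the count was 1 (Cntnap1) in cohort 1 alone, and 0 to 1 when each library was left out, the 1 being without KO replicate 10. Over all 23695 genes, KO against WT gave 482 and 388 calls in these settings, against 237 in the full fit. The slope gave 437 and 384, against 241. In female against male the count of members was 2 with no filter, a setting in which 9087 of 34871 genes were called, and 0 to 1 with a library left out. In cohort 2 against cohort 1 the count of members was 0 in females alone, where 100 of all genes were called. It was 1 in males alone, where 1429 were called, against 4150 in the full fit, and 2 to 4 with a library left out. Correlations with marker means that were called numbered 3 with genotype alone removed, 2 without RIN, 2 in cohort 2 alone, 2 in cohort 1 alone, 0 in males alone and 1 to 3 with a library left out. Correlations between members numbered 5 with genotype alone removed, 1 in cohort 1 alone and 2 to 4 with a library left out. The causes were not tested; the subsets hold fewer mice. No member was called in HET against WT, KO against HET, RIN or the interactions under any alternative.

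Signs turned for the following changes, none of them called in the fit of all 30 brains; the largest of these was Kcna2. In KO against WT these were Cntn1 in cohort 2 (-0.0082), Epb41l3 in cohort 1 (0.0035) and males (0.0345), Kcna1 in cohort 1 (0.0115), Kcna2 in males (0.0169), Scn8a in females (0.0055) and Sptbn4 in cohort 2 (0.0175). In HET against WT they were Cntn1 (-0.0023), Cntnap1 (0.0071), Epb41l3 (-0.0123), Kcna1 (-0.0262) and Scn8a (0.0012) in cohort 2, Epb41l3 (-0.0267), Kcna1 (-0.0062), Kcna2 (-0.0212) and Scn8a (0.0041) in females, Epb41l3 with only the groups compared (-0.009), and Epb41l3 (-0.0001) and Scn8a (0.0022) with library weights. In cohort 2 against cohort 1 they were Kcna1 (0.0295) and Ank3 (-0.0532) in females. In female against male they were Cntn1 with centred libraries (0.0008) and in cohort 2 (0.003), Kcna1 (-0.0114) and Ank3 (0.0035) in cohort 1, and Sptbn4 (-0.0254) and Cntn2 (-0.0029) in cohort 2. With a library left out, the ranges that crossed 0 were Scn8a in KO against WT (-0.0158 to 0.0014), Epb41l3 (-0.0099 to 0.0137) and Scn8a (-0.0109 to 0.0073) in HET against WT, Ank3 in cohort 2 against cohort 1 (-0.0092 to 0.0396), and Cntn1 (-0.0049 to 0.0045) and Ank3 (-0.0162 to 0.0156) in female against male. Over all genes, KO against WT gave 237 calls, 144 with genotype alone, 114 with only the groups compared, 4 with cohort 2 alone, 482 with cohort 1 alone, 13 for females and 15 for males. With a library left out, the KO against WT median ranged from -0.0364 to -0.0135 over the axonal members and from -0.0718 to -0.0373 over the axonal and glial members. No paired analysis was possible because the labels carry no replicate numbers.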
